A study of Mus musculus with 2 samples.

Results

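The genes described here encode the IL-27 receptor, the Janus kinases (JAKs) bound to it, 2 of the STAT transcription factors the kinases can switch on, and 3 SOCS-family proteins that damp the signal. They are Il27ra, Il6st, Jak1, Jak2, Tyk2, Stat3, Stat4, Socs1, Socs3 and Cish, 10 of the 19935 genes named on the arrays, and they were taken by name as parts of 1 pathway, with earlier results of these data known. All 10 were measured. Total RNA from dendritic cells (DCs), the antigen-presenting cells that prime T cells, was read on 1 array for DCs cultured with IL-27 and on 1 array for DCs cultured with vehicle. In both samples the DCs came from the spleens of C57BL/6 mice of wild-type genotype, 8 weeks old, and had been isolated by flow cytometry, so strain, genotype, age and cell source were shared and the treatment alone differed by label. The labels give the length of culture as "ON" and do not state how many mice or cultures a sample came from. With 1 array a group there is no replicate error, so no difference below carries an SD or a p-value, and each compares these 2 arrays.

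IL-27 binds a receptor made of IL-27RA, its own chain, and gp130, the product of Il6st, which it shares with IL-6 and related cytokines. Neither chain is an enzyme: each holds JAK kinases at its cytoplasmic tail, and binding of the cytokine brings the kinases together so that they phosphorylate each other, the receptor and then STAT proteins. Phosphorylated STATs pair, enter the nucleus and bind DNA, and among the genes they switch on are SOCS genes, whose products bind the receptor or the kinases and shut the pathway off. In DCs, IL-27 is known mainly for restraining the capacity of these cells to activate T cells.

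The deposited values were intensities on a linear scale for 28815 probe sets. No detection call came with them, so the level of the 1027 olfactory receptor genes, which DCs are not expected to express, served as a background. Its 95th percentile, called the background limit here, was an intensity of 129 on the IL-27 array and 77.3 on the vehicle array, and 38.0% and 58.0% of all genes lay above the limit of the IL-27 and the vehicle array. A gene was called higher or lower when its log2 difference, IL-27 minus vehicle, was at least 1 in size (2-fold) and its brighter array reached 96.2, the median of all values. The others at that level were called neither. Because differences depended on level over the whole array, each gene was also set beside the 1000 genes nearest to it in mean level. In these bulk samples, fewer cells of a type and less RNA per cell cannot be told apart.

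Of the 10 genes, 1 was called higher (Stat4), 1 was called lower (Tyk2) and 8 were neither. Over all genes, 0.848% were called higher and 7.36% lower. The median difference of the 10 genes was -0.12 on the log2 scale, against 0.04 over all genes and -0.34 over the 11140 genes that reached the level minimum. In 8 of the 10 the difference was under 0.5 in size, and between those 8 lay both receptor chains, 2 of the 3 kinases, Stat3 and all 3 SOCS-family genes. As deposited 6 of the 10 differences lay below 0, as did those of 70.9% of the genes over the level minimum, and with the level trend removed 3 of the 10 did. With the level trend removed, the values of Il6st and Jak2 were 0.01 and 0.04 in place of -0.23 and -0.19, so for these genes no direction held across scalings.

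**Figure D1:**
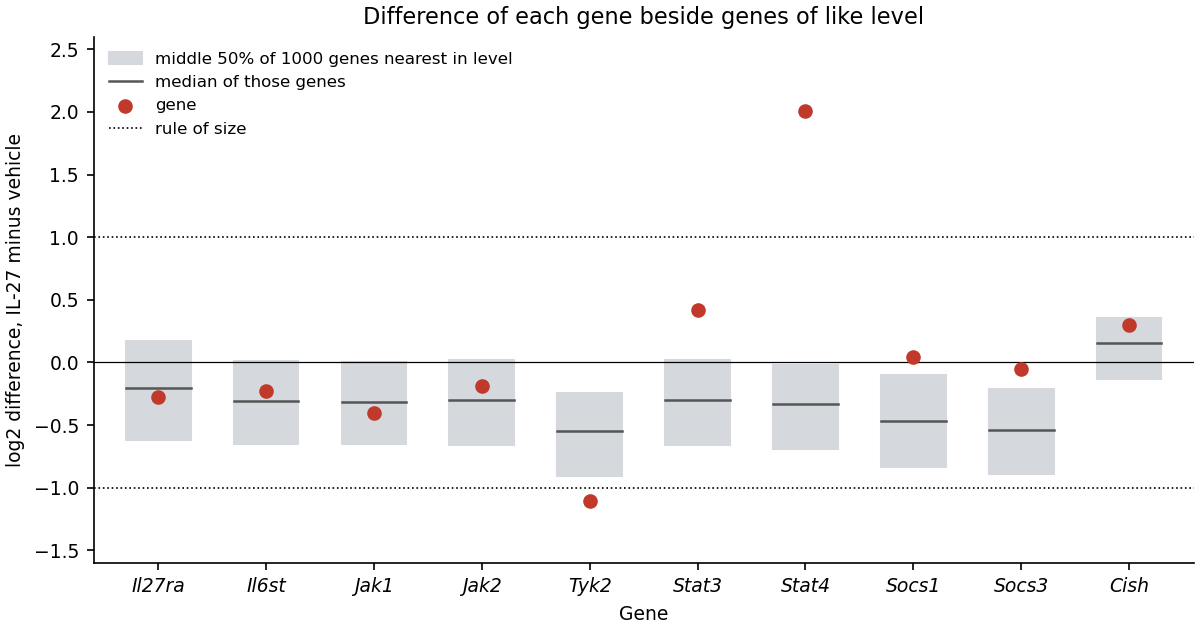
Log2 difference (IL-27 minus vehicle) of each of the 10 genes (red points, 1 array a group), with the median (line) and the middle 50% (grey box) of the 1000 genes nearest in mean level, and dotted lines at -1 and 1. Stat4 stands at 2.01 above a box that ends at -0.02, Tyk2 at -1.11 lies below its box, and the receptor chains, Jak1 and Jak2 lie inside theirs.

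Neither receptor chain passed the rule of size. Il27ra, the chain that gives the receptor its specificity for IL-27 (probe set 10580061), had an intensity of 125 with IL-27 and 152 with vehicle. The first value lies just under the background limit of its array and the second at 1.96 times its limit, so the transcript could be told from background with vehicle only. As deposited, the vehicle value was 1.17 times the limit of the IL-27 array, though the arrays differ in that limit. With the level trend removed the difference was -0.15. The deposited difference of -0.28 is therefore not fixed in size, and the median among genes of like level was -0.20. Il6st, which encodes the signalling chain gp130 (probe set 10407173), had 1205 with IL-27 and 1414 with vehicle, each over 9 times its background limit. Its difference was -0.23, close to the median of -0.30 among genes of like level.

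Among the kinases, Jak1 and Jak2 were close to genes of their level and Tyk2 was lower. Jak1, the kinase that IL-27RA and gp130 both bind (probe set 10514668), had an intensity of 1071 with IL-27 and 1418 with vehicle, a log2 difference of -0.41. Jak2, which gp130 also engages (probe set 10462363), had 1278 with IL-27 and 1459 with vehicle, a difference of -0.19. The median difference of genes nearest in level was -0.32 for Jak1 and -0.30 for Jak2, and both kinases lay within 0.11 of it.

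Tyk2, a kinase that also serves the receptors for type I interferon, IL-12 and IL-10 (probe set 10591446), had an intensity of 268 with IL-27 and 577 with vehicle. This is a 2.16-fold lower value with IL-27, a log2 difference of -1.11, at 2.07 and 7.47 times the background limits of the IL-27 and vehicle arrays. Genes of like level were lower too, with a median of -0.55 and a lower quartile of -0.91, and 196 of the 1000 were called lower. Of these 1000, 161 differed by at least as much as Tyk2. The call held with median centring (-1.21) and with an offset of 16 (-1.06), and it was lost under both other scalings. The difference was -0.78 after quantile normalization, where 4.55% of all genes were called lower and 1.18% higher. It was -0.68 with the level trend removed, where 3.73% were called lower and 1.32% higher. Under each scaling tried the value for Tyk2 stayed below 0. Macrophage and conventional DC markers were lower alongside, with medians of -1.58 and -1.09, and their part in the value of Tyk2 was not tested.

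**Figure D2:**
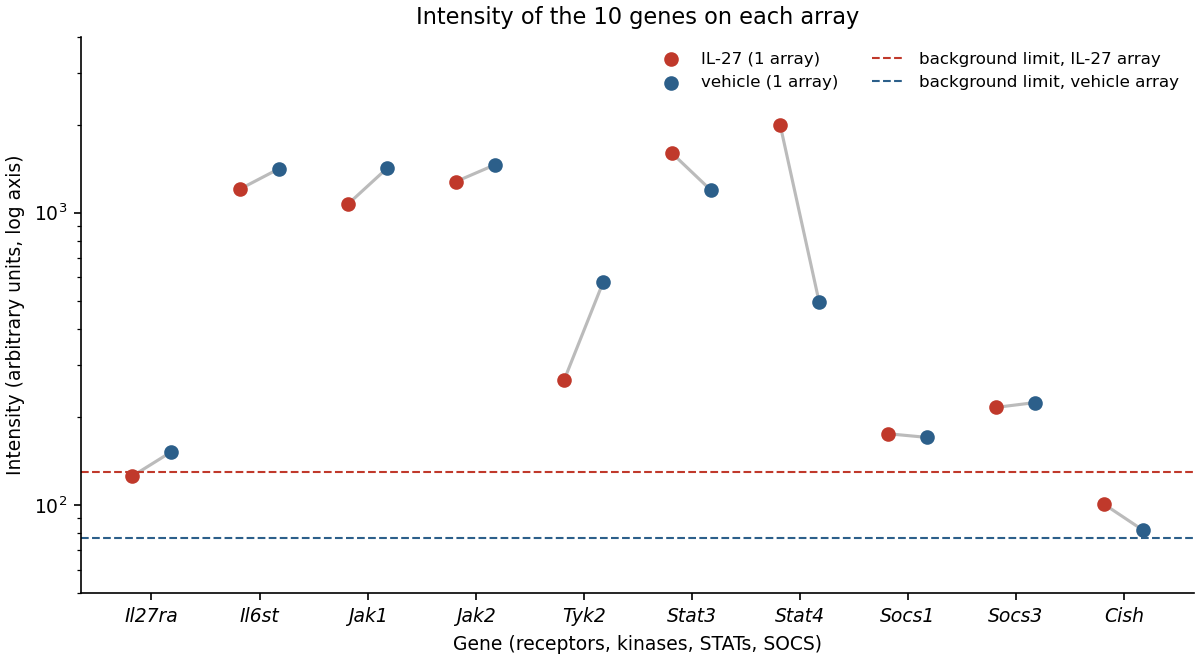
Intensity (log axis) of each of the 10 genes on the IL-27 array (red) and the vehicle array (blue), 1 array each, with the background limit of each array as a dashed line in its colour. Stat4 was at 1994 with IL-27 against 496 with vehicle, Tyk2 at 268 against 577, and Il27ra and Cish lay under the IL-27 array's limit of 129.

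Stat4 had the largest difference of the 10 genes. STAT4 is the factor through which IL-12 drives interferon-gamma production in T and NK cells, and DCs express it as well. Its probe set (10346168) had an intensity of 1994 with IL-27 and 496 with vehicle, 15.4 and 6.42 times the background limits of those arrays. The value with IL-27 was 4.02-fold higher, a log2 difference of 2.01, and it ranked 14 of 19935 genes from the highest difference. Genes nearest in level had a median of -0.34, so Stat4 stood 2.34 above them, and 11 of those 1000 differed by as much in either direction, 2 of them upward. The difference ran from 1.91 with median centring to 2.29 with the level trend removed, past the 2-fold rule under every scaling tried.

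Stat3, the factor that gp130 receptors activate most directly (probe set 10391301), had an intensity of 1596 with IL-27 and 1192 with vehicle. The log2 difference of 0.42 was short of the rule of size, and it was 0.65 with the level trend removed. Genes of like level had a median of -0.30 and an upper quartile of 0.02, and 91 of the 1000 had a difference at or above that of Stat3. Counted in either direction, 487 of the 1000 differed by at least as much. Stat3 lies beside Stat5a and Stat5b on chromosome 11, with no other protein-coding gene between them in RefSeq's annotation. Stat5a, which responds to GM-CSF among other cytokines, had 851 with IL-27 and 534 with vehicle, a difference of 0.67, and it passed the 2-fold rule with the level trend removed (1.02). Stat5b, its close copy, had 320 with IL-27 and 442 with vehicle, a difference of -0.47. With the level trend removed the difference of Stat5b was -0.03. The adjoining genes thus had values on opposite sides of 0 as deposited, but Stat5b was close to 0 with the trend removed. Probe sets of such near-identical genes can also share signal.

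**Figure D3:**
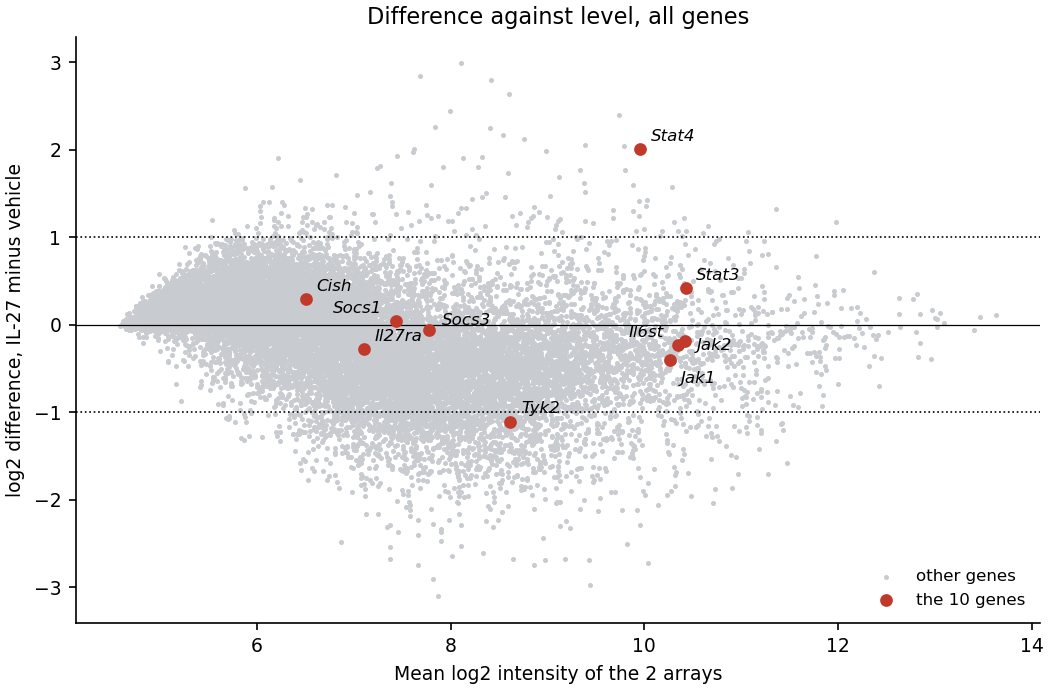
Log2 difference (IL-27 minus vehicle) against mean log2 intensity of both arrays for all genes (grey) and the 10 genes (red, named), with dotted lines at -1 and 1. Most genes of middle level lie below 0, where Tyk2 (-1.11) is also found, whereas Stat4 (2.01) lies among the few genes of its level above 1.

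The genes whose values were most like those of Stat4 were taken by the distance between log2 values over the 2 arrays, a likeness that 2 points can support only loosely. The 5 nearest were Mir680-2, Slc7a5, Serpinb9, Mt2 and Anxa2, at distances of 0.23, 0.27, 0.31, 0.41 and 0.42. Slc7a5, an amino acid transporter, had an intensity of 1651 with IL-27 and 484 with vehicle. Serpinb9, a granzyme B inhibitor, had 1638 with IL-27 and 543 with vehicle. Mt2, a metallothionein, had 1966 with IL-27 and 372 with vehicle, and Anxa2, a membrane-binding annexin, had 1610 with IL-27 and 603 with vehicle. Their likeness to Stat4 follows from how they were taken.

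Markers of T and NK cells, which also transcribe Stat4, were measured on the same arrays. Of 15 such markers measured, 8 lay at or below the background limit on both arrays, among them the T cell receptor chains Cd3d and Cd3g and the NK receptors Ncr1 and Klrb1c. As deposited, 11 of the 15 had differences above 0 and 4 below. Lat, Il2rb and Cd3e, of the T cell receptor and IL-2 receptor pathways, had differences of 0.68, 0.51 and 0.48, all from values under the limit of the IL-27 array. The 2 markers above that limit were Klrd1 (269 with IL-27 and 555 with vehicle) and Tbx21 (199 with IL-27 and 217 with vehicle). The summed intensity of the 15 was 1436 with IL-27 and 1569 with vehicle, and without Klrd1 it was 1167 with IL-27 and 1014 with vehicle. The part of these cells in the value of Stat4 was not tested.

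RefSeq annotates 2 starts for Stat4, and the 300 bases around each (250 before the start and 50 from it on, build GRCm38.p6, plus strand) are shown because Stat4 carries the largest difference. Capitals mark matches to GAAANNGAA, a core bound by interferon regulatory factors. The palindrome TTCNNNGAA, the core that STAT dimers bind, and its stricter form TTCCNGGAA were searched too, all on both strands.

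Stat4 start at chr1:51986898-51987197: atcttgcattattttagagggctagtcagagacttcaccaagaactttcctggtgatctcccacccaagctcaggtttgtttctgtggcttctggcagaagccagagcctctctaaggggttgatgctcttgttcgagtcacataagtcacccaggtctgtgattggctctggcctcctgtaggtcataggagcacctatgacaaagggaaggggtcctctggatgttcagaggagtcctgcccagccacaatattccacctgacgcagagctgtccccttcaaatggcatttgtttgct

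Stat4 start at chr1:52007990-52008289: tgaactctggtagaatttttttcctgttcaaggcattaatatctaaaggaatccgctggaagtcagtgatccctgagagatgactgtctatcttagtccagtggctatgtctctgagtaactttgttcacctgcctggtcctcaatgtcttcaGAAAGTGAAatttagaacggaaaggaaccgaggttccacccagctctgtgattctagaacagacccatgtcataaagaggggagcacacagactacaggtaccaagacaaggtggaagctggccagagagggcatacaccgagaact

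Neither Stat4 window held TTCNNNGAA or TTCCNGGAA. The second held 1 match to GAAANNGAA, from -97 to -89 counted from the start, with the letters GAAAGTGAA. That core occurs in 8.56% of the 32851 windows in the RefSeq table. A match is a description of letters, and the arrays do not tell which start was used.

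Of the SOCS-family genes, which STATs induce in many cells, Socs1 and the brighter probe set of Socs3 had nearly equal values on the arrays as deposited. SOCS1 blocks the JAK catalytic site and damps interferon signals above all. Socs1 (probe set 10437668) had an intensity of 175 with IL-27 and 170 with vehicle, a log2 difference of 0.04. SOCS3 binds gp130 together with its kinase and is the main brake on IL-6-type cytokines. Socs3 had 216 with IL-27 and 224 with vehicle by its brighter probe set (10393449), a difference of -0.05, and 124 with IL-27 and 107 with vehicle by its other probe set (10383010), a difference of 0.22. The probe sets of Socs3 thus lay on opposite sides of 0, and the dimmer one was under the limit of the IL-27 array.

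Both genes were nearer to 0 than genes of like level, which were lower with IL-27, at medians of -0.47 for Socs1 and -0.54 for Socs3. Set against those medians, Socs1 stood 0.51 and Socs3 0.48 above, and a difference at or above theirs was found in 182 of the 1000 genes near Socs1 and in 171 of those near Socs3. Counted in either direction, 962 of the genes near Socs1 and 947 of those near Socs3 differed by at least as much. With the level trend removed their differences were 0.32 and 0.33, still far from 2-fold. With median centring they were -0.06 and -0.15, so the direction of neither gene was fixed.

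Cish encodes CIS, which damps STAT5 signals downstream of GM-CSF and IL-2. Its probe set (10588577) had an intensity of 100.4 with IL-27, below the limit of that array, and 81.8 with vehicle, 1.06 times the limit. The difference of 0.29 therefore compares a value within the background range with one at its edge, and genes of like level had a median of 0.16. With the level trend removed, Cish fell below the level minimum of the rule.

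The start regions of the SOCS-family genes are shown because STAT sites there are the textbook link from the receptor to its own brakes. Each is 250 bases before and 50 from the start on, RefSeq build GRCm38.p6, read 5′ to 3′ on the gene's strand, with matches to TTCNNNGAA or GAAANNGAA in capitals. The strand is minus for Socs1 and Socs3 and plus for Cish.

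Socs1, chr16:10785487-10785786: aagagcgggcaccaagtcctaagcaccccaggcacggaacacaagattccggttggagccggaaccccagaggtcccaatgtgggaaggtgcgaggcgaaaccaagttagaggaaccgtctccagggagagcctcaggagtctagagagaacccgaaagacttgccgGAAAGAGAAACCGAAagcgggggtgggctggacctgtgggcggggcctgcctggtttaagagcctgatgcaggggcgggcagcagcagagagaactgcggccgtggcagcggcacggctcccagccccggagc

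Socs3, chr11:117969317-117969616: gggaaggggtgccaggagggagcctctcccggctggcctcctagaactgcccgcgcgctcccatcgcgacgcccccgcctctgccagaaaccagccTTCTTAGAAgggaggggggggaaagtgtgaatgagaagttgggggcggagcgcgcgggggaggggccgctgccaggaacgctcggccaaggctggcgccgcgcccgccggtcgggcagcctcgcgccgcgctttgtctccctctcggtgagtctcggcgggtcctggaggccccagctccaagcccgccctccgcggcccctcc

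Cish, chr9:107296409-107296708: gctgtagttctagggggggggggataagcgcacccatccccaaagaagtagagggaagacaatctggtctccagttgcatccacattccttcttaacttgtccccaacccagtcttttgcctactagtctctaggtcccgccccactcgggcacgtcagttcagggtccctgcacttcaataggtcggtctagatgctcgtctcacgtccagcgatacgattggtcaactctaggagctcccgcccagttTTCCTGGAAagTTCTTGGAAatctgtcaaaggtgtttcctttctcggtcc

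The Socs3 window held 1 match to TTCNNNGAA, from -154 to -146, with the letters TTCTTAGAA. The Cish window held 2, TTCCTGGAA from 1 to 9 and TTCTTGGAA from 12 to 20, with first bases 11 apart, and the first also matches the stricter TTCCNGGAA. The Socs1 window held no TTCNNNGAA but 2 overlapping matches to GAAANNGAA, from -83 to -75 and from -77 to -69. TTCNNNGAA is found in 8.30% and TTCCNGGAA in 1.15% of all 32851 windows. Of the 10 windows of 9 of these genes in the table, those of Jak1, Jak2, Tyk2, Stat3 and Il6st and the first of Stat4 held none of the 3 cores.

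Other genes of the pathway were counted in lists that, like the 10 genes, were chosen with earlier results of these data known. Of 9 measured paralogs (Stat2, Stat5a, Stat5b, Stat6, Socs2, Socs4, Socs5, Socs6 and Socs7), none was called higher or lower as deposited. Their median difference was -0.25, and it was 0.10 with the level trend removed. Stat2, which joins the interferon-activated STAT complex, had an intensity of 454 with IL-27 and 624 with vehicle, a difference of -0.46. Socs2, which damps growth hormone signals and is abundant in mature DCs, had 565 with IL-27 and 774 with vehicle, a difference of -0.45. With the level trend removed these differences were -0.07 for Stat2 and -0.10 for Socs2.

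Among the genes over the level minimum, 13.2% were called lower and 1.52% higher. Of 11 dampers outside the SOCS family (PIAS proteins, phosphatases, Sh2b3 and Usp18), 2 were called lower and none higher, with a median of -0.35, close to the -0.34 of all genes over the level minimum. Usp18, which blocks JAK1 at the type I interferon receptor, had an intensity of 192 with IL-27 and 596 with vehicle, 3.11-fold lower with IL-27. Ptprc, the CD45 phosphatase of all leukocytes, had 1513 with IL-27 and 3106 with vehicle, 2.05-fold lower, and its difference of -1.04 was -0.88 with the level trend removed. Ptpn6, which encodes SHP-1, and Pias3, a binding partner of STAT3, did not pass the rule. The difference of Ptpn6 was -0.71, and Pias3, under the background limit with IL-27, was at least 1.55-fold lower as deposited. With the level trend removed the difference of Pias3 was -0.56.

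Among 18 measured chains of other receptors that use JAK1, JAK2 or TYK2, 1 was called higher and 2 lower, with a median of -0.35. Over the 15 that reached the level minimum the median was -0.44, against -0.34 for all genes over it. Csf2rb, the shared chain of the GM-CSF, IL-3 and IL-5 receptors, had an intensity of 4149 with IL-27 and 1657 with vehicle, 2.50-fold higher, though mice carry a close copy of it whose transcripts may share the probes. Il13ra1 had 313 with IL-27 and 881 with vehicle, 2.81-fold lower. Csf3r had 81.5 with IL-27, under the background limit, and 275 with vehicle, at least 2.12-fold lower. Il10ra, whose receptor uses TYK2, had 941 with IL-27 and 1708 with vehicle, a difference of -0.86.

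Of 20 genes linked to STAT3 in leukocytes, 1 was called higher and 3 lower, with a median of -0.41. The higher gene was Il1rn, the IL-1 receptor antagonist, at an intensity of 559 with IL-27 and 196 with vehicle (2.85-fold). The lower genes were Fos, Ccnd1 and Myc, regulators of early transcription and growth, which were 4.89-fold, 3.22-fold and 2.75-fold lower with IL-27. Of the 20, 15 had differences below 0, as did 70.9% of all genes over the level minimum, which 18 of the 20 reached. Of 18 measured interferon-stimulated genes, 1 was called higher (Cxcl11) and 7 lower, with a median of -0.72. These include Ciita, the regulator of MHC class II genes, which had 435 with IL-27 and 1383 with vehicle, and Ifit3, an antiviral effector, which had 138 with IL-27 and 501 with vehicle.

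The label of the cells was read against markers. Markers of conventional DCs were detected: all 16 lay above the background limit with vehicle and 14 with IL-27. Of the 16, 15 had differences below 0, with a median of -1.09, and Irf4 had 0.40. The largest were those of Cd209a (-2.72), Kmo (-2.30), Clec4a4 (-2.17, under the limit with IL-27) and Cd8a (-1.53). H2-Ab1, an MHC class II chain and the brightest of the 16, was nearly equal, at 8222 with IL-27 and 8357 with vehicle. The summed intensity of the 16, H2-Ab1 included, was 18668 with IL-27 and 32915 with vehicle, and 9 of 16 were called lower. All 15 measured macrophage and monocyte markers were above the limit with vehicle and 14 with IL-27. They had a summed intensity of 18423 with IL-27 and 41008 with vehicle, 12 were called lower, and all 15 had differences below 0. Of 9 B cell markers, 4 were above the limit with IL-27 and 9 with vehicle, and 2 were called lower. Of 9 plasmacytoid DC markers, 6 were above it with IL-27 and 9 with vehicle, and 1 was called lower. The 11 mature DC markers had a median of 0.26, with Ccl22 called higher and none lower. With median centring Ccl22 was short of 2-fold (0.99), and 2 of the 11 were called higher after quantile normalization or with the level trend removed. The part of these cell populations in the values of Tyk2, Stat3 and Stat4 was not tested.

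**Figure D4:**
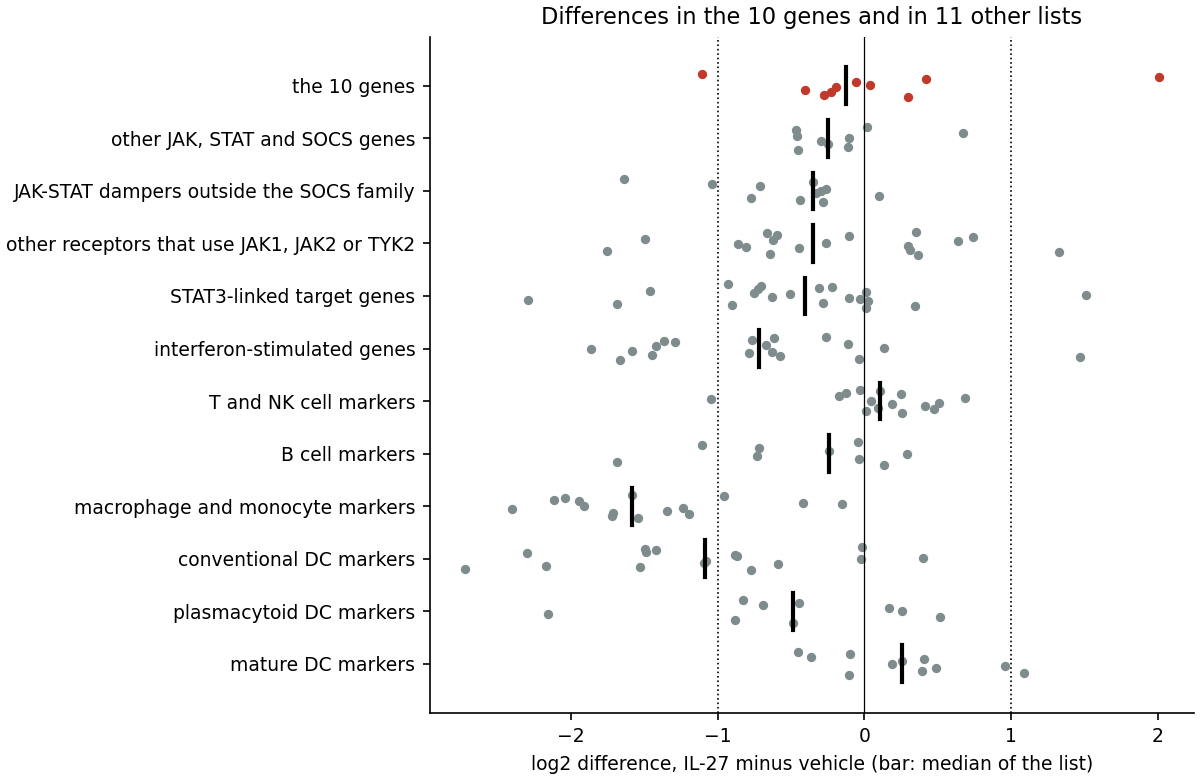
Log2 difference (IL-27 minus vehicle) of each measured gene (points) in the 10 genes (red) and 11 other lists (grey), with a black bar at each list's median and dotted lines at -1 and 1. The 10 genes have a median of -0.12 with Stat4 far to the right at 2.01, and macrophage markers have the lowest median, -1.58.

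Across 5 scalings, Stat4 was the sole gene of the 10 past the 2-fold rule under all of them, and Tyk2 the only other gene past it under any. The median of the 10 genes ran from -0.22 with median centring to 0.09 with the level trend removed. Jak1 ran from -0.50 to -0.16 and Il27ra from -0.37 to -0.15, both below 0 throughout, and Stat3 ran from 0.32 to 0.65, above 0 throughout.

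**Figure D5:**
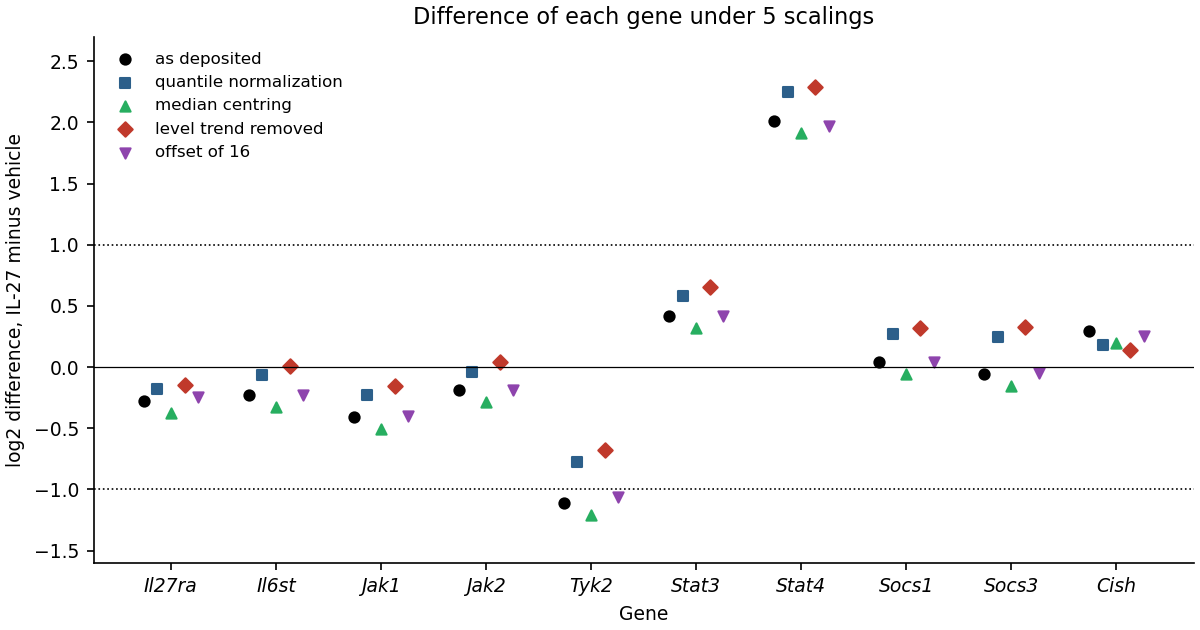
Log2 difference (IL-27 minus vehicle) of each of the 10 genes as deposited and under 4 other scalings (symbols), with dotted lines at -1 and 1. Stat4 keeps between 1.91 and 2.29, Tyk2 runs from -1.21 to -0.68 across the line at -1, and Il6st, Jak2, Socs1 and Socs3 have values on both sides of 0.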

How the data were processed

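RNA of 1 sample of splenic DCs cultured with IL-27 and 1 cultured with vehicle was read on 1 array each, after biotin labelling with Affymetrix's WT Terminal Labeling Kit per the labels' protocols. The authors deposited a linear-scale intensity for each probe set on each array. How background correction, summarization and normalization were done is not given in the sources used here. The arrays had different medians (98.9 with IL-27, 92.4 with vehicle). Per the submitters' processing notes, the build was mm8.

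GEO's platform annotation gave the names: 21780 probe sets had 1 gene, 1605 had several and are not named, and 5430 are unnamed here. A gene with several probe sets (998 of 19935) was represented by the one with the highest mean log2. All 10 gene IDs matched RefSeq. Log2 was taken with no pseudocount. The rule of size and level neighbours were computed over all genes in Python 3.11.15. The rule of size and the trend removal were run on simulated differences, all larger than that of Stat4. No differences were simulated at the low levels of Il27ra, Socs1 and Cish, and the level neighbours were not simulated. Members and lists were chosen with earlier results of these data known. Beside the members, up to 4 genes per list with the largest difference over the level minimum were named by rule, and others as examples after their values were seen. Alternatives were quantile normalization, median centring, lowess of difference on level (span 0.3), an offset of 16, averaging of the probe sets of a gene, other level minimums, 1.5-fold and 300 neighbours.

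With 1 array a group, precision is limited by the number of arrays, and no test between groups was made. Start regions of 9 of the 10 genes, all but Il27ra, came from a table of RefSeq windows (GRCm38.p6).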

Additional observations from a re-analysis of the deposited data

How the results depend on the processing

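Of 50 recomputed differences of the 10 genes, 41 kept their sign and call and lay within 0.5 of the deposited value. Part of that count was fixed in advance. Averaging of probe sets could change only Socs3, the only gene of the 10 with 2 probe sets. Median centring shifted all genes by 1 constant smaller than 0.5, so it could change only a sign or a call. Tyk2 lost its call after quantile normalization (-0.78) and with the level trend removed (-0.68), so 0 of the 10 genes were lower under these settings, not 1. Removing the level trend also gave 0.011 for Il6st, 0.044 for Jak2, 0.33 for Socs3 and 0.14 for Cish, the last under the level minimum. Socs3 also had 0.25 after quantile normalization and 0.081 by the mean of its probe sets, and Socs1 had -0.056 with median centring. Over all genes, 169 higher and 1468 lower as deposited became 235 and 907 after quantile normalization and 264 and 744 with the level trend removed, 653 and 3753 with a 1.5-fold rule, and 101 higher with the level minimum at the 75th percentile. Of 1000 neighbours 1.1%, and of 300 neighbours 1.67%, differed as much as Stat4. Of 66 recomputed list medians, 62 kept their sign and lay within 0.5, though the shift by median centring could not pass 0.5 here either. The median of the paralogs turned from -0.25 to 0.04 after quantile normalization and 0.10 with the trend removed, and that of T and NK cell markers from 0.11 to -0.02 under each. The cause of these shifts was not tested. No paired analysis was possible because each group had 1 array.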
